A study of Mus musculus with 18 samples.

Results

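The genes described here are 10 members of the BCL2 family, the proteins that decide whether the outer membrane of the mitochondrion is breached during programmed cell death. They were chosen by name with earlier results of these data known, so their counts beside those of all genes are a description. Of the 10, 9 were measured, out of 19938 mouse genes read by a probe set that carries 1 gene symbol. Bax was not matched to a probe set and is not analysed here. Each of the 9 measured genes had 1 such probe set.

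Gene expression was measured on 18 one-colour Affymetrix arrays in B16 F10.9-4 cells, a line of the mouse B16 melanoma. In these cells doxycycline pretreatment induces LIP, a truncated form of the transcription factor C/EBPβ, the product of Cebpb. LIP keeps the part that binds DNA and is missing most of the part that activates genes. Tunicamycin, which blocks N-linked glycosylation and so loads the endoplasmic reticulum (ER) with unfolded protein, was then given. There were 6 groups: cells with vehicle, cells with doxycycline and no tunicamycin, and cells exposed to tunicamycin for either 5 or 12 h, each of these without and with doxycycline. Every group comprised 3 arrays, labelled replicate 1 to 3. The study states 3 independent experiments that each held all 6 conditions; the replicate number is taken here as the number of the experiment, which the labels do not say. P-values measure the spread between these arrays in 1 cell line. All groups are the same cell line, and no dose of either agent is given in the sources used here. Doxycycline in cells without inducible LIP, and vehicle at 5 or 12 h, were not analysed here, so LIP cannot be told apart from doxycycline, nor tunicamycin from time in culture. In such bulk RNA fewer cells with a transcript and less of it per cell cannot be told apart.

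In the BCL2 family, anti-apoptotic proteins (encoded by Bcl2, Bcl2l1 and Mcl1) hold back the effectors BAX and BAK, which form pores in the mitochondrial outer membrane. BH3-only proteins (encoded by Bcl2l11, Bbc3, Pmaip1, Bid and Bad) promote death by occupying the anti-apoptotic proteins, and some also activate the effectors. In ER stress the transcription factor CHOP (gene Ddit3) is known from other cells to lower Bcl2 and to raise Bcl2l11. Much of the family's control, such as cleavage of BID, phosphorylation of BAD and rapid turnover of MCL1, acts on the protein and is not visible in RNA.

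Levels are the authors' log2 intensities, and differences are log2 differences between group means with their standard error (SE). Each p is limma's, adjusted over all 19938 genes, and a gene rose or fell where it was under 0.05. A level under 6.08, the 95th percentile of 1190 olfactory and vomeronasal receptor genes, is near that of silent genes. The 7 melanocyte markers checked, among them Mitf, Sox10 and Dct, lay above it, with means over all arrays between 6.89 (Tyr) and 13.64 (Tyrp1). Of 13 markers of immune, endothelial, fibroblast and epithelial cells, 6 lay below it (Ptprc, Itgam, Pecam1, Kdr, Epcam and Krt5) and 7 above, with means from 5.13 (Itgam) to 7.90 (Col1a2). By limma 2 of the 13 fell with doxycycline before tunicamycin (Cd68 by 0.43 and Col1a2 by 0.31), and after 12 h of tunicamycin Cd68 fell by 0.72 and Col1a2 rose by 0.26. The other 3 immune markers, the 3 endothelial and the 3 epithelial ones did not pass in either comparison. Of the 7 melanocyte markers, 5 fell with doxycycline before tunicamycin and 6 during 5 and 12 h of it (Mitf by 0.60, 0.73 and 0.76), and 2 fell after 12 h of tunicamycin. The part of these markers in the results was not tested. Cebpb, which the probe set reads as a whole, stood at 9.26, 9.26 and 9.48 in vehicle and at 11.02, 11.27 and 11.24 under doxycycline. Ddit3 stood at 8.83, 8.49 and 8.84 in vehicle and at 11.60, 11.61 and 11.62 after 12 h of tunicamycin, so both treatments show in their known genes. On the tunicamycin 5 h array of experiment 2, genes strayed farther from their fitted group means (residual SD 0.113 in log2 units) than on the other arrays (0.0606 to 0.0895).

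After 12 h of tunicamycin 7 of the 9 genes had changed, 2 up and 5 down, where 27.7% of all genes had (11.9% up, 15.8% down). Those that fell came from both sides of the family: the survival genes Bcl2l1 and Mcl1, the effector Bak1 and the BH3-only genes Bcl2l11 and Bid. The survival gene Bcl2 and the BH3-only gene Bbc3 rose, and Bad and Pmaip1 did not pass. After 5 h 2 of the 9 had changed, with Bcl2 up and Bcl2l11 down, where 9.02% of all genes had changed (4.08% up, 4.94% down). The median absolute difference of the 9 genes was 0.31 at 12 h and 0.12 at 5 h, against 0.09 and 0.08 over all genes. Both comparisons use the same 3 vehicle arrays. All genes include those under 6.08, whose changes are understated, while of the 9 only Pmaip1 had its mean under it. The part of expression level in these contrasts with all genes was not tested.

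**Figure D1:**
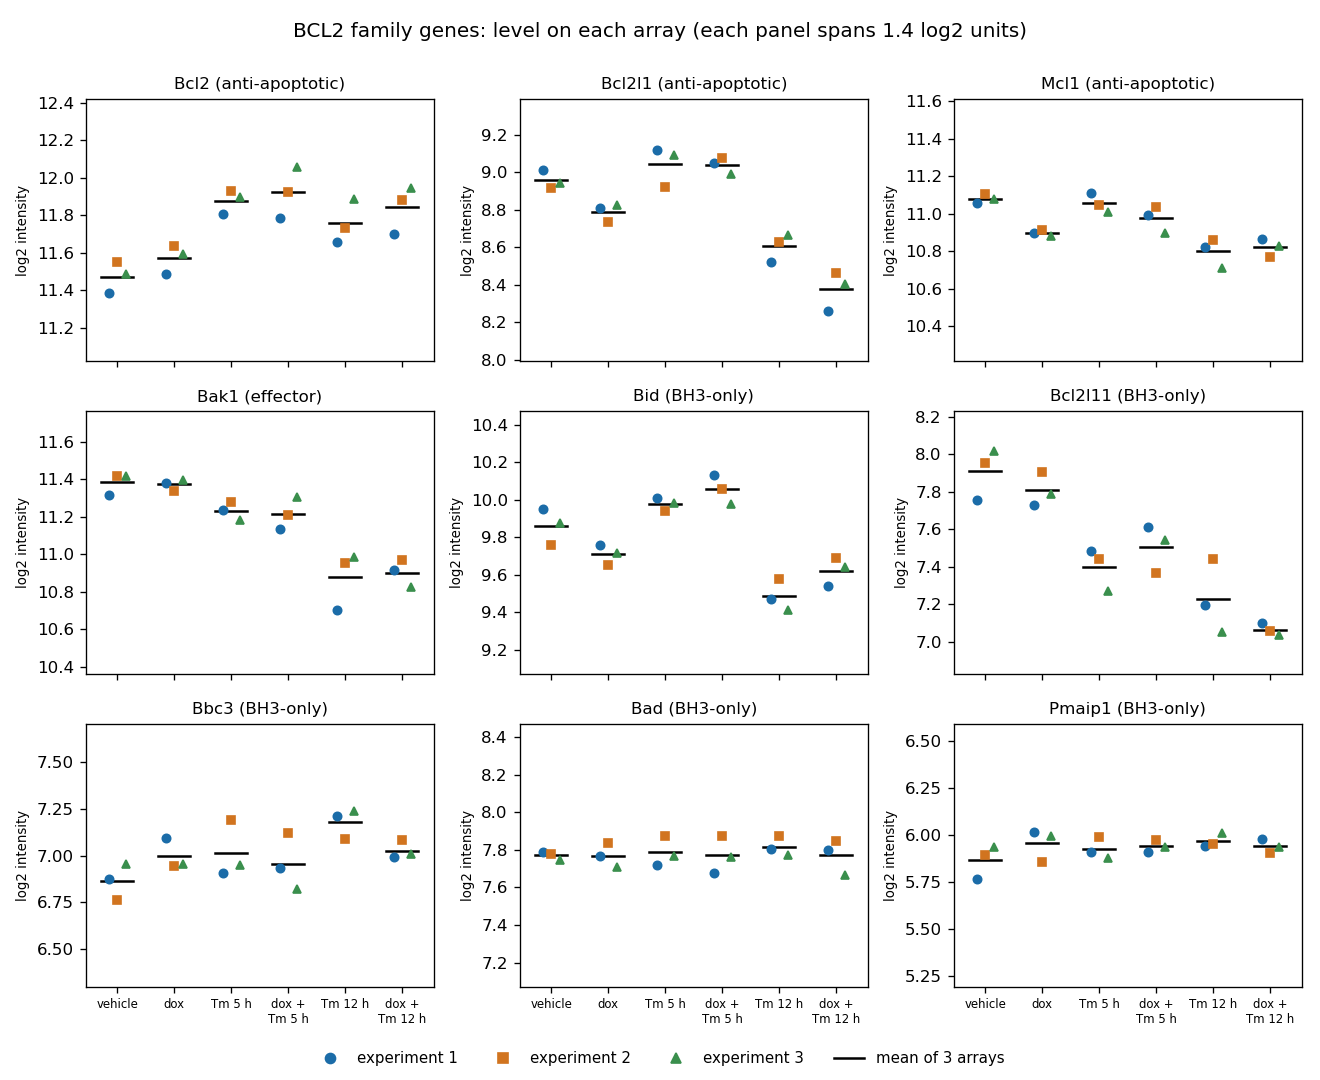
Log2 intensity (vertical axis) of the 9 measured BCL2 family genes on each of the 18 arrays, by group along the horizontal axis; symbols mark the 3 experiments, horizontal lines the group means, and every panel spans the same log2 range. Bcl2 is lowest in vehicle, Bcl2l11 and Bak1 step down with tunicamycin, and Bad and Pmaip1 keep within 0.05 and 0.10 between their highest and lowest group means.

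Bcl2 (probe set 10357043), the founding survival gene of the family, was lowest in vehicle, at 11.39, 11.55 and 11.48 in experiments 1 to 3. It read 11.81, 11.93 and 11.90 after 5 h of tunicamycin and 11.66, 11.73 and 11.88 after 12 h. Every tunicamycin array lay above every vehicle array. Bcl2 thus rose by 0.41 at 5 h (SE 0.079, adjusted p = 0.00276) and by 0.28 at 12 h (SE 0.079, adjusted p = 0.00935). The order of the 6 group means ran from vehicle at 11.47 through doxycycline at 11.57, tunicamycin 12 h at 11.76, both agents at 12 h at 11.84 and tunicamycin 5 h at 11.88 to both agents at 5 h at 11.92. Among the 4 tunicamycin groups neighbours in that order overlapped. The 12 h call was lost without the vehicle array of experiment 1 (adjusted p = 0.0551), the tunicamycin 12 h array of experiment 3 (0.0631) or all of experiment 3 (0.127).

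Under doxycycline Bcl2 rose after tunicamycin too. From 11.49, 11.63 and 11.59 with doxycycline alone it stood at 11.78, 11.92 and 12.05 with tunicamycin for 5 h and at 11.70, 11.88 and 11.95 at 12 h. Both tunicamycin groups, which overlapped each other, lay above doxycycline alone. The differences were 0.35 (adjusted p = 0.00526) and 0.27 (adjusted p = 0.0119). Without experiment 3 the adjusted p was 0.108 at 5 h and 0.114 at 12 h. At 12 h the call was also lost without the doxycycline array of experiment 1 (0.0668), the array with both agents of experiment 3 (0.0746) or experiment 2 (0.0605).

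Bcl2l1 (probe set 10488655) encodes BCL-XL, a survival protein of the mitochondrial membrane, and its short splice form BCL-XS, which promotes death; the probe set does not part them. It read 9.01, 8.92 and 8.94 in vehicle, 9.12, 8.92 and 9.09 after 5 h of tunicamycin and 8.52, 8.63 and 8.66 after 12 h. The 5 h group overlapped vehicle, and all 12 h arrays lay below both. The difference from vehicle was 0.09 at 5 h (adjusted p = 0.446; 0.0475 with array weights) and the fall at 12 h was by 0.35 (SE 0.062, adjusted p = 0.000204). From 5 to 12 h Bcl2l1 fell by 0.44 (adjusted p = 2.33e-05).

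With doxycycline Bcl2l1 read 8.81, 8.73 and 8.83 alone, 9.05, 9.08 and 8.99 after 5 h of tunicamycin, and 8.26, 8.46 and 8.41 after 12 h. These 3 groups did not overlap one another. The gene rose by 0.25 at 5 h (adjusted p = 0.0114) and fell by 0.41 at 12 h (adjusted p = 3.41e-05) against doxycycline alone. The tests of whether these effects differed from those without doxycycline did not pass, at 0.16 for 5 h (adjusted p = 0.643) and -0.06 for 12 h (adjusted p = 0.859). The 5 h rise lost its call without experiment 2's doxycycline array (adjusted p = 0.0598), its array with both agents (0.0515), or any 1 experiment (0.0647 to 0.094). Bcl2l1 had the widest range of group means of the survival genes, 0.67, a width that 90.5% of all genes stayed under.

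Mcl1 (probe set 10494306), a short-lived survival protein, changed less. It read 11.06, 11.10 and 11.08 in vehicle, 11.11, 11.05 and 11.01 after 5 h of tunicamycin and 10.82, 10.86 and 10.71 after 12 h. All 12 h arrays lay below all vehicle and 5 h arrays. Mcl1 stood at -0.02 at 5 h (adjusted p = 0.829) and fell by 0.28 at 12 h (SE 0.051, adjusted p = 0.000282). Under doxycycline, which by itself had lowered it to 10.89, 10.91 and 10.88, Mcl1 did not pass at either time, at 0.08 (adjusted p = 0.444) and -0.08 (adjusted p = 0.336).

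Bak1 (probe set 10449303) encodes BAK, the measured one of the pore-forming effectors. Its levels were 11.31, 11.42 and 11.42 in vehicle, 11.24, 11.28 and 11.18 at 5 h and 10.70, 10.95 and 10.98 at 12 h of tunicamycin. The 3 groups stepped down without overlap. The 5 h difference of -0.15 did not pass (SE 0.068, adjusted p = 0.189; 0.0126 with array weights), and at 12 h Bak1 fell by 0.50 (SE 0.068, adjusted p = 9.84e-06), a 1.42-fold difference.

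With doxycycline Bak1 read 11.38, 11.34 and 11.40 alone, 11.14, 11.21 and 11.30 at 5 h, and 10.91, 10.97 and 10.82 at 12 h. The fall at 12 h was by 0.47 (adjusted p = 1.88e-05). The change at 12 h differed between cells with and without doxycycline by 0.03, with a 95% interval of -0.17 to 0.23.

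Bcl2l11 (probe set 10475866) encodes BIM, a BH3-only protein that binds all the survival proteins and can activate the effectors. It had the widest range of group means among the 9 genes, 0.84, a width that 94.7% of all genes stayed under. Bcl2 and Bcl2l11 are the genes that changed at both times without and with doxycycline, in opposite directions, so the stretch before the start of each is shown. The sequences are RefSeq's, build GRCm38.p6, 250 bases up to the start site, 5′ to 3′ on the gene's own strand. Bcl2l11 lies on the plus strand with its window at chr2:128125788-128126037 and Bcl2 on the minus strand with its window at chr1:106714291-106714540. Capitals mark the match to a FOXO motif, 227 to 221 bases before the start of Bcl2l11.
Bcl2l11: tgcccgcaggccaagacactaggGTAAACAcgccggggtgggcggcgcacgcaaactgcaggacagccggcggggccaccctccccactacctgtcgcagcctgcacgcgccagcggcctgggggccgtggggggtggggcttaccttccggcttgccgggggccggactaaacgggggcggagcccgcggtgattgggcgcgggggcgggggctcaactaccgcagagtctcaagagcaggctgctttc
Bcl2: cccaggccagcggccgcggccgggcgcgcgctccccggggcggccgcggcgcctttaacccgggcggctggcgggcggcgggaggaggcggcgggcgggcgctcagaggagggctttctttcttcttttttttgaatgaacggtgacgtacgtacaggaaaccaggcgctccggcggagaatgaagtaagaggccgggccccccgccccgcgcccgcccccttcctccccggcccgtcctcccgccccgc

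Both windows are rich in G and C, at 72.0% for Bcl2l11 and 74.8% for Bcl2, against a median of 52.4% over 32851 windows of this length. Motifs were searched on both strands, and none of the 5 lies within another: TGTTTAC for FOXO factors, TTGCNNAA for C/EBP, TGATGNAA for the C/EBP-ATF element that CHOP and ATF4 are known to use, TGACGTCA for ATF and CREB factors, and the ER stress element ERSE. The FOXO motif was in 3.17% of all windows and in 2 of the 15 windows found for 9 of the 10 named genes (Bax included, Pmaip1 not), 1 of Bcl2l11 and 1 of Bbc3. Bcl2l11 has a second window, at chr2:128127325-128127574, with 0 matches. The C/EBP motif was in 9.56% of all windows and in 1 of the 15, that of Bid. The other motifs, found in 3.45%, 1.55% and 0.113% of all windows, had 0 matches in the 15. A match is a run of letters and not evidence of binding.

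The levels of Bcl2l11 were 7.75, 7.96 and 8.02 in vehicle, 7.48, 7.44 and 7.27 after 5 h of tunicamycin, and 7.20, 7.44 and 7.05 after 12 h. Every tunicamycin array lay below every vehicle array, while the 5 and 12 h groups overlapped. Bcl2l11 fell by 0.51 at 5 h (SE 0.092, adjusted p = 0.00152), more than 99.3% of genes moved in either direction, and by 0.68 at 12 h (SE 0.092, adjusted p = 1.06e-05), a 1.60-fold difference. Without experiment 3 the 5 h fall was by 0.39 (adjusted p = 0.0938). Between 5 and 12 h the difference was -0.17 (adjusted p = 0.219; 0.0312 without the tunicamycin 12 h array of experiment 2).

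Under doxycycline Bcl2l11 read 7.73, 7.90 and 7.79 alone, 7.61, 7.37 and 7.55 at 5 h and 7.10, 7.06 and 7.04 at 12 h. The groups stepped down without overlap. The fall was by 0.30 at 5 h (adjusted p = 0.0389) and by 0.74 at 12 h (SE 0.092, adjusted p = 3.23e-06), a 1.67-fold difference. The 5 h call was lost without any 1 of the 3 doxycycline arrays (adjusted p 0.0519 to 0.159), without the array with both agents of experiment 2 (0.188) or 3 (0.0711), without any 1 experiment (0.0798 to 0.279) and with array medians set equal (0.0527).

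Bid (probe set 10547531) encodes a BH3-only protein that caspase-8 cuts into its active form, which links death receptors to mitochondria. It read 9.95, 9.76 and 9.88 in vehicle, 10.01, 9.94 and 9.99 after 5 h of tunicamycin and 9.47, 9.58 and 9.41 after 12 h. The 5 h group overlapped vehicle, and all 12 h arrays lay lower. The difference was 0.12 at 5 h (adjusted p = 0.274), and at 12 h Bid fell by 0.38 (SE 0.061, adjusted p = 8.21e-05). From 5 to 12 h it fell by 0.49 (adjusted p = 4.53e-06).

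With doxycycline Bid read 9.76, 9.65 and 9.72 alone, 10.13, 10.06 and 9.98 at 5 h and 9.54, 9.69 and 9.64 at 12 h. All 5 h arrays lay above the other doxycycline arrays, and the 12 h group overlapped doxycycline alone. Bid rose by 0.35 at 5 h (adjusted p = 0.00076) and stood at -0.09 at 12 h (adjusted p = 0.353). The test of the difference in tunicamycin effect at 12 h gave 0.29 (SE 0.086, 95% interval 0.11 to 0.47), with an unadjusted p of 0.00363 and an adjusted p = 0.109, so it did not pass over all genes. Its adjusted p was 0.044 with array weights. Bid held the C/EBP match, printed with 30 bases on the minus strand at chr6:120916896-120916925 of GRCm38.p6. Capitals mark the match, 90 to 83 bases before a RefSeq start. That start and the match lie inside the gene, whose annotated 5′ end is at chr6:120917062.
Bid: gacccttgggtTTCCGCAAagtgtggccag

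Bbc3 (probe set 10550290) encodes PUMA, a BH3-only protein known as a target of p53. Its levels were 6.87, 6.77 and 6.95 in vehicle, 6.91, 7.19 and 6.95 at 5 h, and 7.21, 7.09 and 7.24 at 12 h of tunicamycin. All 12 h arrays lay above vehicle, and the highest 5 h array was the one of experiment 2 with the large residual spread. Bbc3 stood at 0.15 at 5 h (adjusted p = 0.287) and rose by 0.31 at 12 h (SE 0.081, adjusted p = 0.00576; 0.0843 without experiment 1). The 12 h over 5 h difference was 0.16 (adjusted p = 0.17), and 0.25 without that 5 h array (adjusted p = 0.0281).

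With doxycycline Bbc3 did not pass at 5 h (-0.04, adjusted p = 0.89) or 12 h (0.03, adjusted p = 0.857). Its arrays read 7.09, 6.94 and 6.95 with doxycycline alone and 6.99, 7.08 and 7.01 with both agents at 12 h. The difference of the 12 h effects was -0.28 (95% interval -0.53 to -0.04, adjusted p = 0.293) and did not pass.

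Bad and Pmaip1 gave the narrowest ranges. Bad (probe set 10461017), a BH3-only protein controlled by phosphorylation, had group means between 7.77 and 7.82. Its 12 h difference was 0.05 without doxycycline, with a 95% interval of -0.08 to 0.17, and only 0.943% of all genes had a narrower range of group means. Pmaip1 (probe set 10456357), which encodes NOXA, a BH3-only partner of MCL1, had group means between 5.87 and 5.97, all under the 6.08 mark of silent genes. At such levels background adds to the signal and a change is understated. Its 12 h difference of 0.10 (95% interval -0.01 to 0.22) did not pass (adjusted p = 0.2), though the tunicamycin arrays, at 5.94, 5.95 and 6.01, did not overlap the vehicle arrays at 5.77, 5.89 and 5.94.

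From 5 to 12 h of tunicamycin 4 of the 9 genes changed, all downward (Bcl2l1, Mcl1, Bak1 and Bid), where 25.0% of all genes changed (11.4% up, 13.6% down). Mcl1 fell by 0.26 (adjusted p = 0.000786) and Bak1 by 0.35 (adjusted p = 0.000581), and Bcl2 stood at -0.12 (adjusted p = 0.321). The 4 genes that fell were lower at 12 h in 3 of 3 experiments. Against doxycycline alone, 4 of the 9 changed at 5 h of tunicamycin (3 up, 1 down), where 12.1% of all genes changed (6.54% up, 5.56% down). At 12 h 4 of the 9 changed (1 up, 3 down), where 29.9% of all genes did (13.4% up, 16.6% down). The 5 h count was 2 without the doxycycline array or the array with both agents of experiment 2, 2 without experiment 1 or 2, and 1 without experiment 3.

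**Figure D2:**
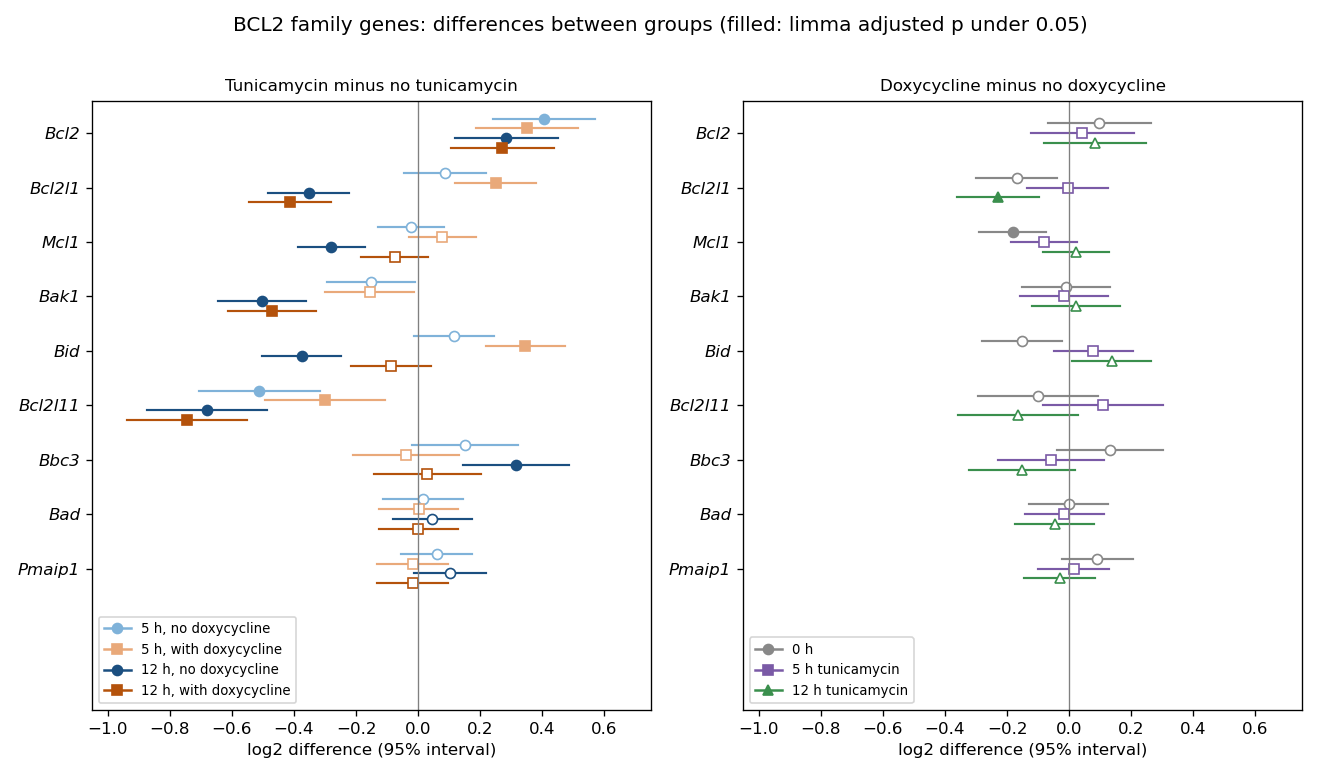
Log2 differences (horizontal axis) of the 9 genes with their 95% intervals, for tunicamycin against no tunicamycin (left) and doxycycline against no doxycycline (right); filled symbols passed limma's adjusted p of 0.05. The tunicamycin effects at 12 h reach from 0.31 (Bbc3) down to -0.74 (Bcl2l11 with doxycycline), and all doxycycline effects lie within 0.23 of 0.

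Before tunicamycin doxycycline changed 1 of the 9 genes, a share near that over all genes, where 10.7% of all genes did (4.89% up, 5.82% down): Mcl1 fell by 0.18 (SE 0.051, adjusted p = 0.0262), with all doxycycline arrays below all vehicle arrays. That call was lost without any 1 of the 6 arrays (adjusted p 0.0581 to 0.0941) or any 1 experiment (0.116 to 0.201). Bcl2l1 at -0.17 (adjusted p = 0.0998) and Bid at -0.15 (adjusted p = 0.137) were also lower in 3 of 3 experiments and did not pass. The Bcl2l1 groups did not overlap, and for Bid the highest doxycycline and the lowest vehicle array were both at 9.76. Bcl2l1 passed with only the compared groups (0.0403), with array medians set equal (0.0341) and with array weights (0.0241), and Bid with array weights (0.0445).

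During 5 h of tunicamycin doxycycline changed 0 of the 9 genes by limma, where 12.0% of all genes changed (6.76% up, 5.21% down). At an unadjusted p under 0.05 there were 0 of the 9, and the share of all genes at that level was not computed. The differences lay between -0.08 (Mcl1) and 0.11 (Bcl2l11). During 12 h it changed 1 of the 9, again near the share over all genes, where 14.7% of all genes did (6.95% up, 7.77% down): Bcl2l1 fell by 0.23 (SE 0.062, adjusted p = 0.0168), from 8.52, 8.63 and 8.66 to 8.26, 8.46 and 8.41. The groups did not overlap, but the call was lost without the array with both agents of experiment 1 (0.104), the tunicamycin 12 h array of experiment 2 (0.0569) or 3 (0.0738), experiment 1 (0.107) or 3 (0.219), and with only the compared groups (0.0687). Bid at 0.14 (adjusted p = 0.166; 0.0494 with quantile normalization repeated), Bcl2l11 at -0.16 (adjusted p = 0.303) and Bbc3 at -0.15 (adjusted p = 0.277; 0.0394 without experiment 2) did not pass.

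The test of whether doxycycline altered the tunicamycin effect passed for 0 of the 9 genes at 5 h and 0 at 12 h by limma, where 0.0301% of all genes passed at 5 h (all upward) and 1.84% at 12 h (0.993% upward, 0.848% downward). At an unadjusted p under 0.05 there were 1 (Bid) and 3 (Bid, Mcl1 and Bbc3). The share of all genes at that unadjusted level was not computed, so these counts cannot be set against the shares above. For Mcl1 the 12 h difference of effects was 0.20 (95% interval 0.05 to 0.36, adjusted p = 0.206).

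The balance of the family was followed as the mean change of the 6 pro-apoptotic genes (Bak1, Bcl2l11, Bbc3, Pmaip1, Bid and Bad) minus that of the 3 anti-apoptotic genes (Bcl2, Bcl2l1 and Mcl1). It combines changes and not levels of different probe sets, and since its genes were chosen with results known it is a description with no test. Relative to the vehicle mean, the balance was -0.02, -0.03 and 0.05 on the vehicle arrays. It was -0.24, -0.12 and -0.27 after 5 h of tunicamycin, and -0.15, -0.18 and -0.20 with both agents at 5 h. At 5 h the balance thus lay below that of the vehicle arrays, with the 3 survival genes at 0.16 and the 6 death genes at -0.05 on average without doxycycline. The genes of a side did not move together. Bcl2 stood at 0.41, but Bcl2l1 at 0.09 and Mcl1 at -0.02. Bcl2l11 (-0.51) and Bak1 (-0.15) were lower than in vehicle, but Bbc3 (0.15), Bid (0.12), Pmaip1 (0.06) and Bad (0.02) were higher.

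At 12 h the balance was -0.05, -0.03 and -0.11 without doxycycline and 0.01, -0.05 and -0.15 with it, and both groups overlapped vehicle. Both sides were lower than in vehicle by then, the 6 death genes at -0.18 and the 3 survival genes at -0.12 without doxycycline, and at -0.22 and -0.16 with it. With doxycycline alone it was 0.12, 0.06 and 0.06, as the survival genes stood at -0.08 and the death genes at -0.01. These arrays were barely above the vehicle arrays, with the lowest at 0.055 and the highest vehicle array at 0.050.

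The change in balance from vehicle to 5 h of tunicamycin was -0.21 ± 0.115 (SD over 3 experiments) and from doxycycline alone to both agents at 5 h -0.25 ± 0.016, negative in 3 of 3 experiments each. At 12 h it was -0.07 ± 0.088 (negative in 2 of 3) and -0.14 ± 0.052 (negative in 3 of 3). Without Bcl2l11 the 5 h changes were -0.12 and, under doxycycline, -0.20, and the 12 h changes 0.03 and -0.04. With medians in place of means the 5 h changes were -0.05 and -0.28 and the 12 h changes 0.12 and 0.02. The size at 5 h without doxycycline and the sign at 12 h thus depend on how the genes are summarised. Between cells with and without doxycycline the balance differed by 0.08 ± 0.068 before tunicamycin, 0.03 ± 0.085 at 5 h and 0.00 ± 0.049 at 12 h.

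**Figure D3:**
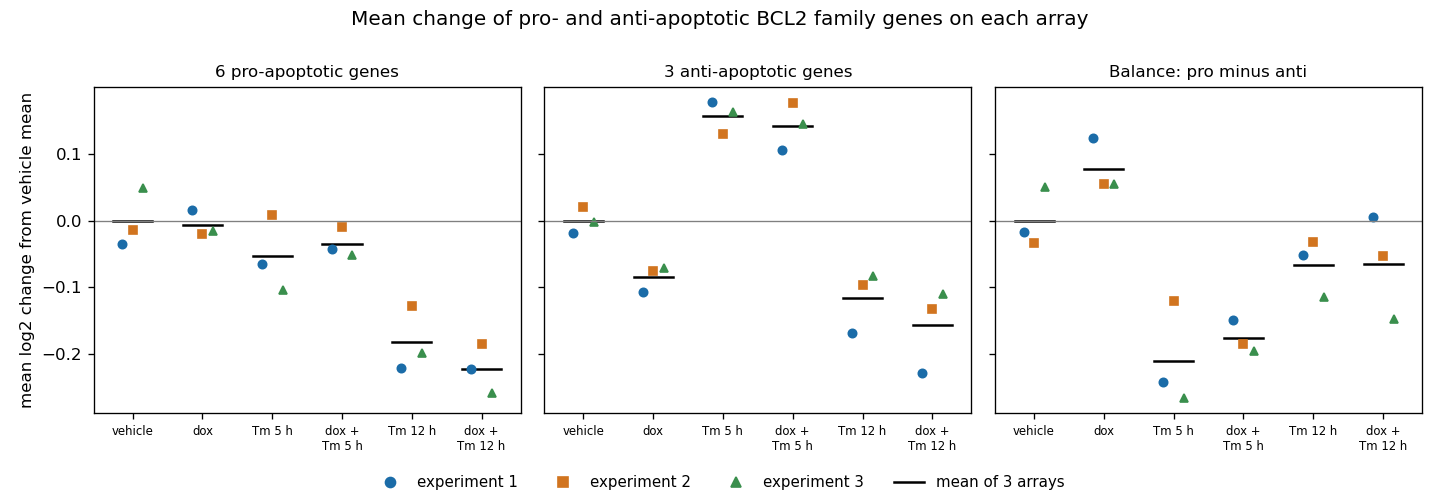
Mean log2 change from the vehicle mean (vertical axis) of the 6 pro-apoptotic genes, the 3 anti-apoptotic genes and their difference on each of the 18 arrays, by group along the horizontal axis; symbols mark the 3 experiments and lines the group means. The difference lies lowest at 5 h of tunicamycin, with group means of -0.21 and -0.18, and nearer 0 at 12 h, where both sides are below vehicle.

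The other genes of the family and its pathway were read from 4 lists. Without doxycycline, of 13 measured further BCL2 family genes 1 fell at 5 h of tunicamycin and 2 at 12 h. At either time 0 rose, where 9.02% and 27.7% of all genes changed. Bnip3, a mitophagy receptor with a BH3-like region, fell by 0.69 at 5 h (adjusted p = 3.54e-05) and by 0.27 at 12 h (adjusted p = 0.019), and Bcl2l12 fell by 0.23 at 12 h (adjusted p = 0.0103). Against doxycycline alone 1 fell at 5 h, and 1 rose and 1 fell at 12 h, where 12.1% and 29.9% of all genes changed. Bnip3 fell by 0.63 at 5 h (adjusted p = 4.61e-05). At 12 h Bcl2l2 rose by 0.24 (adjusted p = 0.00285) and Bcl2l12 fell by 0.37 (adjusted p = 0.000181). Bnip3l, a close relative of Bnip3, was the 1 further family gene that doxycycline changed at each time, where 10.7%, 12.0% and 14.7% of all genes changed. It rose by 0.17, 0.19 and 0.18 at 0, 5 and 12 h (adjusted p 0.0202, 0.00947 and 0.00925).

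Of 14 measured genes listed for the mitochondrial death pathway, 9 had changed at 12 h of tunicamycin, 4 up and 5 down, where 11.9% of all genes rose and 15.8% fell. Birc2, an inhibitor of apoptosis protein, rose by 0.55 (adjusted p = 7.21e-05), while Aifm1, the apoptosis-inducing factor of mitochondria, fell by 0.35 (adjusted p = 0.000107) and Birc5, survivin, fell by 0.31 (adjusted p = 0.000131). At 5 h 1 rose and 2 fell, where 4.08% and 4.94% of all genes did. Apaf1, the scaffold of the apoptosome, fell by 0.27 (adjusted p = 0.00367), Aifm1 fell by 0.26 (adjusted p = 0.00701) and Htra2, a mitochondrial protease, rose by 0.18 (adjusted p = 0.0351). Under doxycycline 2 rose and 3 fell at 12 h of tunicamycin, where 13.4% and 16.6% of all genes did. Birc5 fell by 0.52, Birc2 rose by 0.49 and Casp9 fell by 0.44 (adjusted p 2.63e-07, 0.000206 and 1.86e-05).

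Before tunicamycin doxycycline changed 0 of these 14 genes by limma, where 10.7% of all genes changed. There were 2 at an unadjusted p under 0.05, a level at which the share of all genes was not computed. The smallest p was that of Apaf1 (-0.16, adjusted p = 0.0692). During 5 h of tunicamycin 1 rose and 3 fell, where 6.76% and 5.21% of all genes did. Birc2 rose by 0.32 (adjusted p = 0.0223), Birc5 fell by 0.34 (adjusted p = 0.000176) and Endog, a mitochondrial nuclease, fell by 0.23 (adjusted p = 0.0182). During 12 h 1 of the 14 changed, where 14.7% of all genes did: Birc5 fell by 0.36 (adjusted p = 6.96e-05).

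Of 16 measured regulators of the family's transcription, turnover and sequestering, 3 rose and 6 fell at 12 h of tunicamycin, where 11.9% of all genes rose and 15.8% fell. Ddit3 rose by 2.89, Atf4, the factor upstream of it, rose by 1.07, and E2f1, a cell cycle factor, fell by 0.70 (adjusted p 1.34e-14, 1.23e-10 and 3.72e-07). At 5 h 2 rose and 1 fell, where 4.08% and 4.94% of all genes did. Ddit3 rose by 1.17, Atf4 rose by 0.36 and Fbxw7, which marks MCL1 for degradation, fell by 0.21 (adjusted p 5.90e-08, 0.000757 and 0.041). Under doxycycline 3 rose and 7 fell at 12 h of tunicamycin, where 13.4% and 16.6% of all genes did. Ddit3 rose by 2.95, Atf4 rose by 0.80 and E2f1 fell by 0.74 (adjusted p 1.04e-14, 5.33e-09 and 1.58e-07). Over the same times Bcl2 rose and Bcl2l11 fell, as given above, and a link of either to Ddit3 or Atf4 was not tested.

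Doxycycline moved Atf4 and Ddit3 in opposite directions before tunicamycin, 1 up and 1 down of the 16, where 4.89% and 5.82% of all genes did. Atf4 rose by 0.36 (adjusted p = 0.000618) and Ddit3 fell by 0.35 (adjusted p = 0.0108). During 5 h of tunicamycin Atf4 rose by 0.28 (adjusted p = 0.00367), E2f1 fell by 0.30 (adjusted p = 0.00786) and Ddit3 stood at -0.20 (adjusted p = 0.144). During 12 h Ddit3 fell by 0.28 (adjusted p = 0.0279) and E2f1 by 0.22 (adjusted p = 0.0495).

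In the death receptor arm, which leads to the cutting of BID, 7 genes were measured, and 1 rose and 2 fell at 12 h of tunicamycin, where 11.9% of all genes rose and 15.8% fell. Cflar, the caspase-8 inhibitor, rose by 0.71 (adjusted p = 1.13e-07), Casp8 fell by 0.29 (adjusted p = 0.000206) and the adaptor Tradd fell by 0.16 (adjusted p = 0.029). At 5 h 1 of the 7 changed, where 9.02% of all genes did: Casp8 fell by 0.19 (adjusted p = 0.0256). Under doxycycline 1 rose and 4 fell at 12 h, where 13.4% and 16.6% of all genes did, with 0.94 for Cflar, -0.46 for Casp8 and -0.27 for the adaptor Fadd (adjusted p 2.20e-09, 7.82e-07 and 0.00419).

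Doxycycline lowered 1 of these 7 genes before tunicamycin, where 5.82% of all genes fell: Cflar, by 0.31 (adjusted p = 0.00443). During 5 h of tunicamycin Tnfrsf1a, the receptor for tumour necrosis factor, rose by 0.34 (adjusted p = 0.00101) and Cflar fell by 0.26 (adjusted p = 0.0117). During 12 h Fadd fell by 0.28 (adjusted p = 0.00653) and Tradd by 0.21 (adjusted p = 0.00849).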

How the data were processed

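Gene expression was read on 18 arrays, 1 for each culture. Log2 intensities of 35557 probe sets are as the authors deposited them, made by RMA with Partek per the submitters' processing notes; versions, settings and a genome build are not given in the sources used here. RMA understates changes of dim probe sets. Groups and replicate numbers came from the sample labels.

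Probe sets with 1 gene symbol (21789) were kept, the brightest for each gene, which gave 19938 genes. Limma (version 3.58.1, R 4.3.3) was fitted to 6 group means over all 18 arrays (12 residual and 5.99 prior degrees of freedom). P-values were adjusted by Benjamini-Hochberg within each comparison, at a threshold of 0.05, and the fit was tested on simulated data. The number of arrays limits the precision.

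The alternatives tried were a block for the experiment, a fit of only the compared groups, no dim genes, repeated quantile normalization, equal array medians, a robust variance trend, weights for arrays, averaged probe sets, and leaving out each array or experiment. Members and lists were chosen with earlier results of these data known. All members are named in every comparison. Of each other list the rule takes up to 3 genes past the threshold, by size of change, or else the gene with the smallest p.

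The labels give replicate numbers 1 to 3, and the series' design text tells of 3 independent experiments with all 6 conditions in each; reading the number as the experiment is an inference. Deviations from group means had a median correlation of 0.04 (-0.50 to 0.50) over 45 same-numbered pairs, 14 of them over 0.1, against a median of -0.01 for other pairs, so the values do not show the pairing.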

Additional observations from a re-analysis of the deposited data

Results flagged for a closer look

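Among the 9 genes and the 2 genes that check the treatments, the test of whether doxycycline altered the tunicamycin effect passed for Cebpb at 12 h. The doxycycline effect on Cebpb was smaller there than before tunicamycin, by -0.62 on the log2 scale (limma adjusted p = 0.00247). Doxycycline raised it by 1.84 before tunicamycin and by 1.22 at 12 h, where the arrays without doxycycline had themselves risen to 10.38, 10.23 and 10.28.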

How the results depend on the processing

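Of 2600 values (gene, comparison and alternative) over 29 alternatives, 2547 kept their side of the threshold, 39 lost a call, 14 gained one and 0 called values changed sign. The block for the replicate number, which pairs same-numbered arrays, changed no call of the 9 genes: counts stayed at 1, 0 and 1 for doxycycline at 0, 5 and 12 h and at 2 and 7 for tunicamycin at 5 and 12 h.

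The count for doxycycline before tunicamycin (1) was 2 with only the compared groups, 2 with equal array medians and 3 with array weights; at 12 h of tunicamycin (1) it was 0 with only the compared groups and 2 with repeated quantile normalization. Array weights gave 4 for 5 h of tunicamycin (2) and 1 for the 12 h interaction (0). Leaving out arrays or experiments gave 0 to 1 and 0 to 2 for doxycycline at 0 and 12 h, 1 to 2 for tunicamycin at 5 h and 1 to 4 for tunicamycin at 5 h under doxycycline. The cause was not tested.

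With medians over genes the change in balance was 0.16 for doxycycline before tunicamycin and -0.061 at 12 h. For tunicamycin it was -0.048 at 5 h and 0.12 at 12 h, and under doxycycline -0.28 and 0.023. Without Bcl2l11, an alternative chosen after seeing the data, it was 0.033 at 12 h, and under doxycycline -0.20 at 5 h and -0.037 at 12 h. The 5 h change under doxycycline was -0.24 with repeated quantile normalization, -0.23 with BH3-only genes alone, and -0.27 to -0.23 with arrays or experiments left out. Pmaip1, near the level of silent genes, is limited by background.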

Other observations

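The genes whose levels ran most like those of Bcl2l11 over the 18 arrays, among 12392 genes above the level of silent receptor genes, were Dnajc9, a histone and heat shock co-chaperone (Pearson r = 0.94), Kif20a, a mitotic kinesin (0.94), and Klhl30 (0.94). Klhl30 went from 8.94 in vehicle to 7.82 after 12 h of tunicamycin and 7.61 with both agents. Those most like Bcl2l1 were Enc1 (0.98), Nav2 (0.97) and Ptrhd1 (0.97). Enc1 went from 9.68 in vehicle to 9.12 after 12 h of tunicamycin and 8.74 with both agents. The 18 arrays share the same 6 groups, so these values describe likeness across the treatments and carry no p.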
